A study of Rattus norvegicus with 7 samples.

Results

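The Dlk1-Dio3 imprinted miRNA cluster was followed in rat liver on a microarray that carried probes for 677 rat miRNAs. Its members were chosen by name. They were the array's miRNAs named after 37 listed precursors of the cluster, with a 5p, 3p or star suffix where the array gave one, and they came to 69 of the 677 miRNAs. The selection rule left out 1 further array miRNA of a listed precursor. It was counted with the rest of the array, was detected widely enough to be tested, and is not described here, so the counts below hold for the 69 and not for every product of the 37 precursors. In the RefSeq gene table (assembly GRCr8), all 37 precursor genes lay between Dlk1 and Dio3 on chromosome 6 and on 1 strand, among 59 miRNA genes in that interval. The array carried another 30 miRNAs of the interval, which were counted with the rest of the array. The rats were adult male Sprague-Dawley animals. The PFOS group ate feed with 50 mg/kg of perfluorooctanesulfonate, given as its potassium salt, which is a long-lived fluorinated chemical used as a surfactant, and the other group ate the control feed. Exposure lasted 28 days after 1 week of acclimatisation, and both groups were otherwise treated alike as far as the labels say. Liver RNA from 4 rats per group was hybridised, 1 rat per array, and 1 control array was dropped by the submitters after quality control, which left 4 PFOS arrays and 3 control arrays. The study asked how dietary PFOS relates to hepatic miRNA profiles and thyroid hormone homeostasis.

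The Dlk1-Dio3 locus is expressed from a single parental allele per gene. The paternal chromosome expresses the protein genes Dlk1, Rtl1 and Dio3, and the maternal chromosome expresses long noncoding RNAs, of which Meg3 is the best known, together with small nucleolar RNAs and the miRNAs. The miRNAs are processed from these maternal transcripts, are abundant in embryo, placenta and brain, and are known to fall to low levels in most adult tissues, liver included. Dio3 itself encodes a deiodinase that inactivates thyroid hormone. A mature miRNA recognises its targets mainly through its seed, bases 2 to 8 counted from the 5′ end.

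In these livers the 69 cluster miRNAs were mostly not detected. On a given array, 1 to 4 of its 69 miRNAs were detected, whereas 130 to 197 of the 608 other miRNAs were. Over all 7 arrays, 64 cluster miRNAs were detected on none and 5 on at least 1, namely rno-miR-494, rno-miR-376b-3p, rno-miR-539, rno-miR-409-3p and rno-miR-770*. Only rno-miR-494 was detected on every array. Detection on an array required that at least 1 probe of the miRNA had over 50% of its spots well above background by the scanner software's flag. In whole liver, fewer cells of a type and less RNA per cell cannot be told apart.

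The mature sequences of the detected members are shown because they are what the probes had to capture and because they differ in seed. They come from RefSeq (GRCr8), with the seed in capitals. RefSeq held 68 mature sequences for the 37 precursors, of 17 to 25 bases, and 10 of the 69 array names equalled a RefSeq name. Array names without an arm are therefore given with both arms of their precursor. In current naming the unstarred miR-494 is the 3p arm and the unstarred miR-539 the 5p arm, and miR-409-3p is listed in RefSeq as miR-409a-3p.
miR-494-3p: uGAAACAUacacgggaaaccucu
miR-494-5p: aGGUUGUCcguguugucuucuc
miR-376b-3p: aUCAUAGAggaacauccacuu
miR-539-5p: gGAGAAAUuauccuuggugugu
miR-539-3p: cAUACAAGgguaauuucuuuuc
miR-409a-3p: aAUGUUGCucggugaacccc
miR-770-5p: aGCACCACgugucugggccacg
miR-770-3p: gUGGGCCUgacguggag

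The 5 precursors thus carried no seed in common among the sequences shown. Over the whole cluster, the 68 mature sequences had 64 different seeds, and 3 seeds were shared by 7 of the sequences. The seed GGUUGUC belonged to miR-494-5p, miR-410-5p and miR-496-5p. The seed AUACAAG belonged to miR-539-3p and miR-381-3p, and UGGAUAU to miR-376b-5p and miR-376c-5p. Of the other 723 rat mature sequences in the table, the closest to miR-494-3p by edit distance was miR-377-3p, at 7 changes. For miR-376b-3p it was miR-376a-3p, at 3 changes. The miR-376 family is shown because its members are near copies, of which the array detected 1.
miR-376b-3p: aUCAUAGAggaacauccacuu
miR-376a-3p: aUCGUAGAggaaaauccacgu
miR-376c-3p: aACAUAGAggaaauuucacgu

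With positions counted from the 5′ end of miR-376b-3p, miR-376a-3p differed from it by A4G, C13A and U20G, the first of them inside the seed. From the same reference, miR-376c-3p differed by U2A, C13A, A14U, C16U and U20G, again with 1 change in the seed. On the array, miR-376b-3p had 63 of 135 spots well above background over the 7 arrays. The array's miR-376a had 0 of 131 and its miR-376c 0 of 132, and on every array both were below 0 in processed signal, which is background-subtracted fluorescence. The processed signal ran from -12.4 to -6.37 for miR-376a and from -7.67 to -3.09 for miR-376c.

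Among the 69 miRNAs, those detected came from 2 of the 5 groups into which the locus was divided. Nearest to Dlk1 lies miR-770, whose gene is inside Meg3, and 1 of its 2 miRNAs was detected. The next genes, miR-493, miR-337, miR-540 and miR-665, gave 7 miRNAs with 0 of 946 spots well above background. The 5 precursors that overlap Rtl1, namely miR-431, miR-433, miR-127, miR-434 and miR-136, are known to be transcribed antisense to it and to target its transcript. Their 9 miRNAs had 0 of 1229 spots well above background. The 3 miRNAs of miR-341 and miR-370 had 0 of 417. The remaining 25 precursors, from miR-379 to miR-410, are the largest group, and 4 of their 48 miRNAs were detected, with 256 of 6522 spots well above background. The precursors of this group with no detected miRNA among the 69 were miR-379, miR-411, miR-299, miR-323, miR-329, miR-543, miR-495, miR-376c, miR-376a, miR-300, miR-381, miR-487b, miR-382, miR-485, miR-154, miR-496, miR-377, miR-541, miR-412, miR-369 and miR-410.

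**Figure D1:**
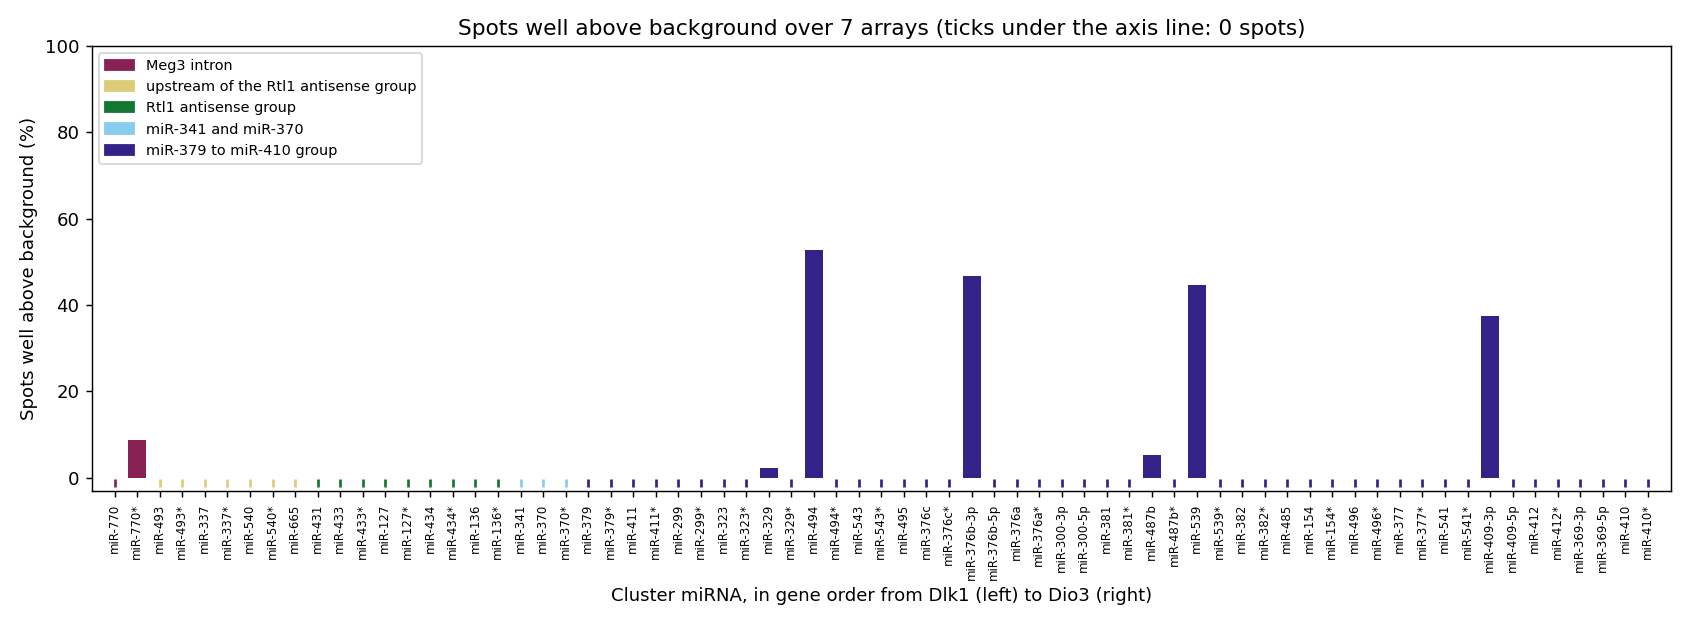
Percentage of spots well above background over the 7 arrays (vertical axis) for each of the 69 cluster miRNAs, in gene order from Dlk1 to Dio3 (horizontal axis) and coloured by locus group, with a tick below 0 where no spot passed. The bars reach 52.7% for miR-494, 46.7% for miR-376b-3p, 44.6% for miR-539 and 37.4% for miR-409-3p, and most of the other miRNAs have 0 spots.

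The 64 undetected miRNAs gave almost no spots above background. Of their 8708 spots, 10 were well above background (0.115%), and these belonged to miR-487b (7 spots) and miR-329 (3 spots). Their processed signals ran from -24.6 to 18.9 over all arrays. On all 7 arrays, 32 of the 64 had a processed signal below 0. The probes' mean signals can also be set against the array's own negative-control spots, of which each array had 434. Over the undetected miRNAs, 50 of 1022 probe values exceeded the median of that array's negative controls (4.89%), and 5 exceeded their 95th percentile (0.489%). A probe value is a mean over several spots, whereas the controls are single spots, and most probe values lay below the controls' median. These shares are therefore not error rates. After scaling, 58 of the 64 were at the floor of the measurement on every array, so that no order or difference can be read from them.

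The 5 undetected members with the highest scaled signal were miR-487b, miR-496*, miR-136, miR-299 and miR-487b*. This order is of mean scaled signal, most of it under the floor, and is not an order of abundance. RefSeq held both arms for 3 of these precursors, which are shown to identify them.
miR-487b-5p: aGUGGUUAucccuguccucuucg
miR-487b-3p: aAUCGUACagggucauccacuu
miR-496-5p: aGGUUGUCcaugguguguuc
miR-496-3p: aGUAUUACauggccaaucucc
miR-299a-5p: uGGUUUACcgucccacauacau
miR-299a-3p: uAUGUGGGacgguaaaccgcu

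The processed signal of miR-487b was 10.1, 6.32 and 12.4 on the control arrays and 6.03, 15.0, 17.6 and 10.1 on the PFOS arrays. These ranges overlap, and all spots above background came from 1 of its 2 probes. By the scanner software's own gene-detected flag, miR-487b was detected on PFOS arrays 2, 3 and 4 and on no control array. For miR-496*, miR-136, miR-299 and miR-487b*, no spot was well above background on any array. Their processed signals reached at most 12.7, 12.3, 11.7 and 12.3.

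The share of the cluster detected was far below that of the rest of the array on each of the 7 arrays. Control arrays detected 4, 2 and 1 cluster miRNAs, and PFOS arrays detected 2, 4, 3 and 3. The group means were 2.33 ± 1.53 (SD, n = 3) and 3 ± 0.816 (SD, n = 4), and the groups overlapped. Without control array 1 the control mean was 1.5. The other miRNAs were detected at 21.4% to 28.0% on control arrays and at 26.2% to 32.4% on PFOS arrays. Over all 7 arrays, 7.25% of the cluster and 35.2% of the other miRNAs were detected at least once, and 1.45% and 20.1% on every array. Counts over a list have no test here.

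**Figure D2:**
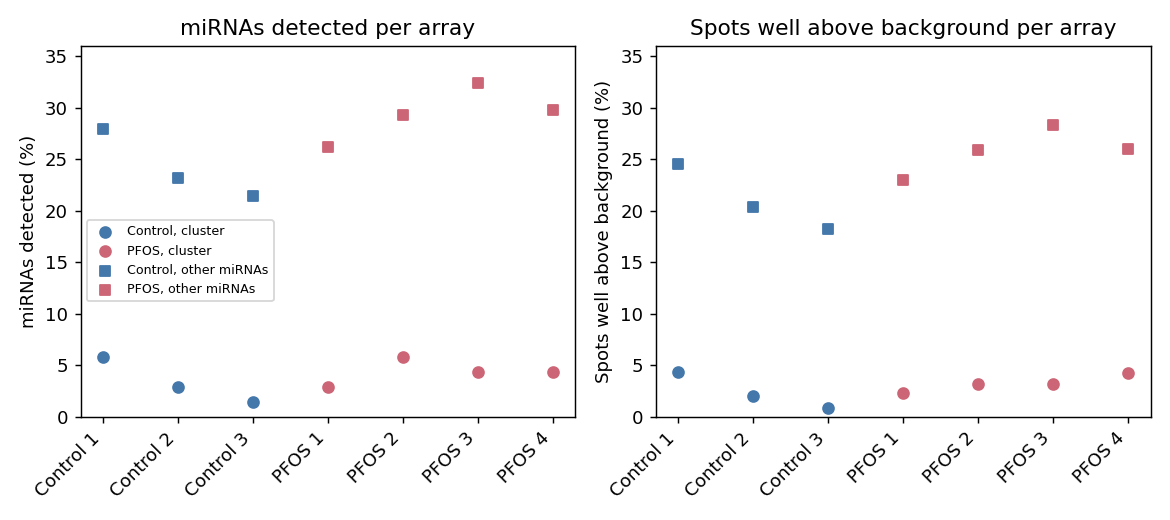
Left, percentage of miRNAs detected per array. Right, percentage of spots well above background per array. Circles are the 69 cluster miRNAs and squares the 608 other miRNAs, blue for control and red for PFOS. The cluster lies between 1.45% and 5.80% on the left and between 0.822% and 4.33% on the right, below the other miRNAs on all 7 arrays.

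The PFOS arrays were brighter. The median processed signal of the miRNAs detected on all arrays was 133 to 176 on control arrays and 226 to 326 on PFOS arrays, and the labelling spike-in was 2.23-fold higher on PFOS arrays, while the hybridisation spike-in was 0.929-fold. For this reason the unscaled and the normalised signals of the cluster are given side by side below, and the part of this brightness in the detection counts was not tested. All arrays were on 1 slide with 1 scan time. The liver identity of the samples was checked with lists of marker miRNAs: 7 of 7 hepatocyte miRNAs were detected on every array, as were 5 of 5 leukocyte and Kupffer cell, 2 of 2 endothelial, 2 of 2 erythroid and 4 of 8 stellate cell and fibroblast miRNAs, but 0 of 8 neuronal and 0 of 4 skeletal muscle miRNAs. Of the 4 skeletal muscle miRNAs, 1 was detected on any array, miR-206, and it was detected widely enough to be tested. Neuronal markers bear on this cluster, which brain expresses. Of these 8, 1 was detected on any array, miR-128, and it too was tested. The summed normalised signal of the 8 neuronal miRNAs was 91.0 to 122 on control arrays and 82.1 to 108 on PFOS arrays. Undetected miRNAs enter this sum with values at or near the floor of the measurement. A miRNA at the floor on every array differed by -0.17 in log2, PFOS minus control, from the normalisation alone. No neuronal level or group difference is therefore read from the sum.

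Among members, miR-494 gave the clearest signal. Its processed signal was 140, 95.4 and 118 on the control arrays and 147, 157, 143 and 176 on the PFOS arrays. On this unscaled measure all 4 PFOS arrays were above all 3 control arrays, which also held for 38.4% of the 219 miRNAs detected on at least 1 array. After normalisation the values were 176, 146 and 147 on the control arrays and 151, 127, 90.8 and 139 on the PFOS arrays. The normalised groups overlap, with PFOS array 3 the lowest of the 7. Their means were 156 ± 17.2 (SD, n = 3) and 127 ± 26.04 (SD, n = 4).

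The signal of miR-494 came from 1 of its 2 probes. Probe 2 had 67 of 67 spots well above background, with mean signals of 90.9 to 167. Probe 1 had 2 of 64 spots above, with mean signals of 4.45 to 8.81, near the 95th percentile of the negative controls (6.12 to 9.14). The disagreement held on every array, so miR-494 counted as detected only because 1 passing probe was enough. The starred partner, miR-494*, had 0 of 136 spots well above background.

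The remaining detected members were read by probes that agreed more closely, apart from miR-770*. For miR-376b-3p, 31 of 66 and 32 of 69 spots of its 2 probes were well above background. The 4 probes of miR-539 had 11 to 19 spots above of 34 or 35 each. The 3 probes of miR-409-3p had 18 of 49, 22 of 48 and 12 of 42 spots above. For miR-770*, all 12 spots above came from 1 probe of 70 spots, and the other probe had 0 of 68. The other arms were not detected: miR-376b-5p, miR-539*, miR-409-5p and miR-770 each had 0 spots well above background.

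**Figure D3:**
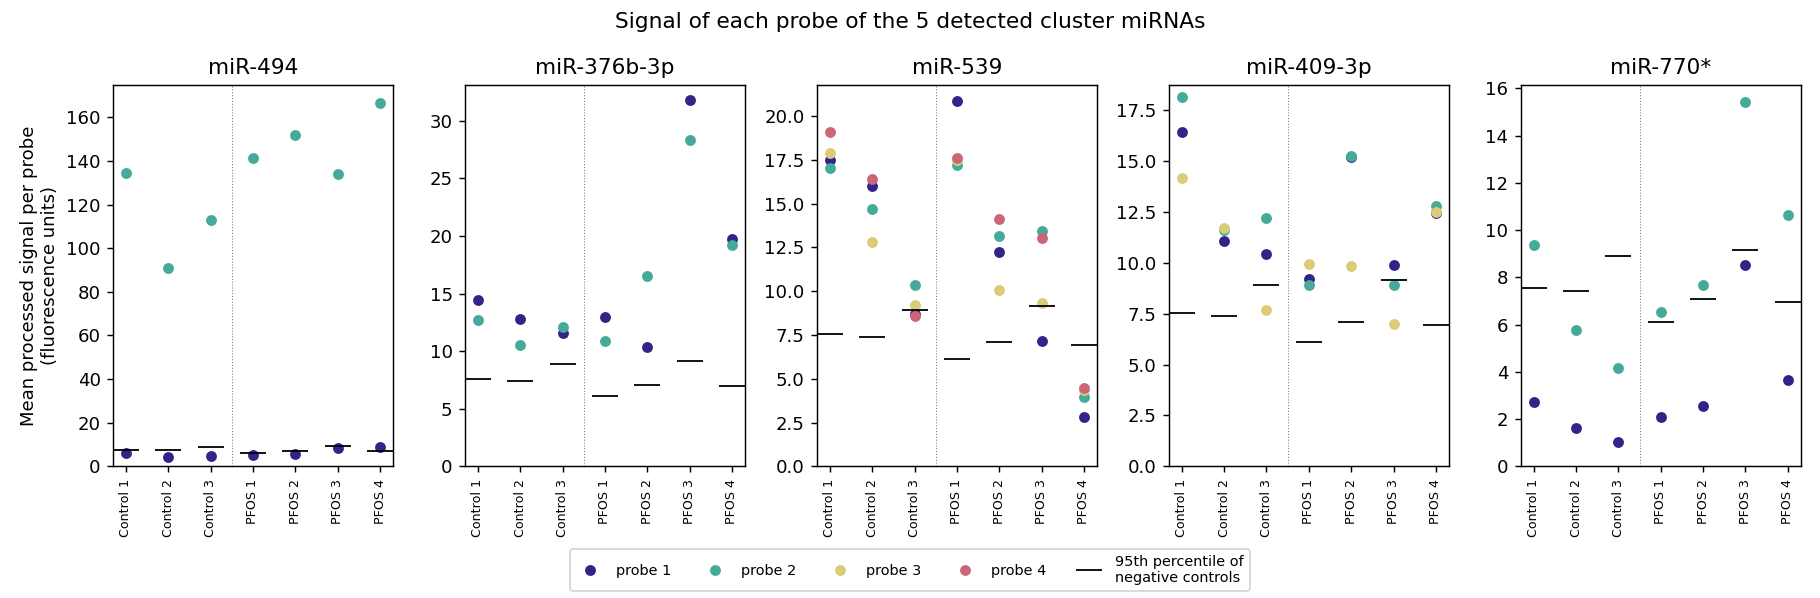
Mean processed signal of each probe (coloured points, vertical axes with their own scale per miRNA) on each array for the 5 detected cluster miRNAs, with the 95th percentile of that array's negative controls as a black dash. Probe 2 of miR-494 rises farthest above the dashes, from 90.9 to 167, while its probe 1 lies between 4.45 and 8.81. Probes of other members also rise above the dash on some arrays. Those of miR-376b-3p reach 31.8 and 28.3 on PFOS array 3, where the dash is at 9.14.

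The signal of miR-376b-3p was low on the control arrays, at 27.2, 23.4 and 23.7 processed units. On the PFOS arrays it was 23.9, 26.9, 60.1 and 38.9, so that PFOS arrays 3 and 4 stood above all other arrays. It was detected on 1 of 3 control arrays and 3 of 4 PFOS arrays. After normalisation the values were 34.2, 37.6 and 28.5 against 27.1, 19.3, 39.0 and 30.2, and the groups overlapped. The PFOS arrays held both the lowest and the highest normalised value.

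For miR-539, the processed signal was 71.5, 59.9 and 36.9 on the control arrays and 73.2, 49.6, 43.0 and 15.6 on the PFOS arrays. Its values spread widely within each group, and all 4 of its probes were low together on PFOS array 4, at 2.82 to 4.48. The normalised values were 92.2, 94.0 and 46.6 against 74.2, 38.5, 27.0 and 12.3. It was detected on 2 arrays of each group, and the groups overlapped on both scales.

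For miR-409-3p, the processed signal was 48.8, 34.5 and 30.3 on the control arrays and 28.1, 40.4, 25.8 and 37.8 on the PFOS arrays. These overlap. The normalised values were 61.4, 54.6 and 38.5 on the control arrays and 28.7, 30.3, 16.99 and 29.5 on the PFOS arrays, and here every PFOS array was below every control array. Of the 219 miRNAs detected on at least 1 array, 10.5% were likewise lower in PFOS without overlap. After normalisation so were the undetected miR-487b, miR-136 and miR-299, each at the floor on 6 arrays, but not miR-496* and miR-487b*. In the authors' deposited log2 table the miR-409-3p groups overlapped, with a lowest control value of 5.822 and a highest PFOS value of 5.827. This miRNA was detected on 1 control array and 2 PFOS arrays, and PFOS array 3 was well below the other 3.

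The processed signal of miR-770*, from the Meg3 intron, was 12.1, 7.41 and 5.18 on the control arrays and 8.61, 10.2, 23.9 and 14.3 on the PFOS arrays. It was detected on PFOS array 3 alone. The normalised values were 15.6, 14.8 and 10.98 against 13.1, 9.69, 14.9 and 11.6, with most of these set by the floor (5 of 7 arrays), so no fold is given.

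**Figure D4:**
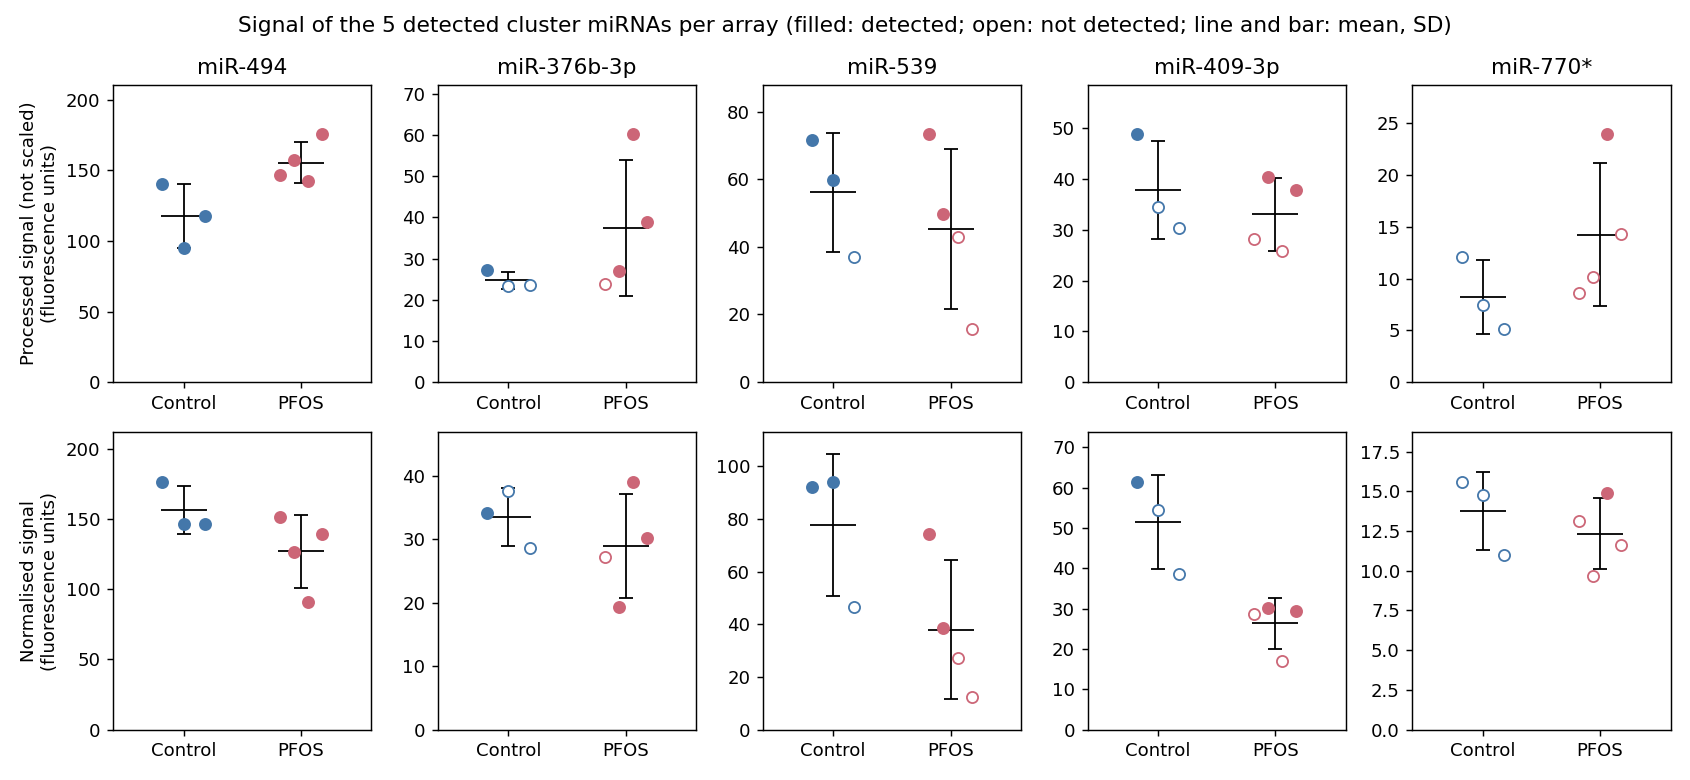
Signal per array of the 5 detected cluster miRNAs in control (blue) and PFOS (red) livers, unscaled processed signal above and normalised signal below, in fluorescence units with a scale per panel; filled points are arrays where the miRNA was detected, and the line and bar are the mean and SD. For miR-494 the PFOS mean is above the control mean before scaling (156 against 118) and below it after normalisation (127 against 156).

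The comparison of PFOS with control used limma on normalised log2 signal over 175 miRNAs, each of which had to be detected in all 3 control livers or in 3 or more PFOS livers. Of the cluster, miR-494 and miR-376b-3p entered this test, 2 of 69, and neither passed an adjusted p of 0.05. Detected on 1 control array and 3 PFOS arrays, miR-376b-3p entered through the PFOS arrays alone. Detected on 2 arrays of each group, miR-539 did not enter. For miR-494 the log2 difference, PFOS minus control, was -0.32 (SE 0.19, 95% interval -0.78 to 0.13, limma adjusted p = 0.438), with geometric means of 124.6 and 155.8. Without PFOS array 3 it was -0.17. For miR-376b-3p it was -0.25 (SE 0.24, 95% interval -0.83 to 0.34, limma adjusted p = 0.642), and without PFOS array 2 it was -0.02. The intervals do not show that the groups were alike.

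Of all 175 tested miRNAs, 0% passed the threshold in limma, and 18.3% had an unadjusted p under 0.05, neither cluster member among them. Both cluster differences were negative, as were 57.1% of the 175. The median difference was -0.28 for the 2 cluster miRNAs and -0.02 for all 175. By slide row, each of which holds arrays of both groups, the miR-494 difference was -0.35 in the first row and -0.38 in the second. The first row held 1 control and 2 PFOS arrays and the second 2 of each, so the first rests on a single control rat. That of miR-376b-3p was -0.58 in the first row and 0.07 in the second. Normexp, with 50 added to every spot, and quantile normalisation were also tried in place of the array's background correction. The miR-494 difference was then 0.13 and that of miR-376b-3p 0.01.

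**Figure D5:**
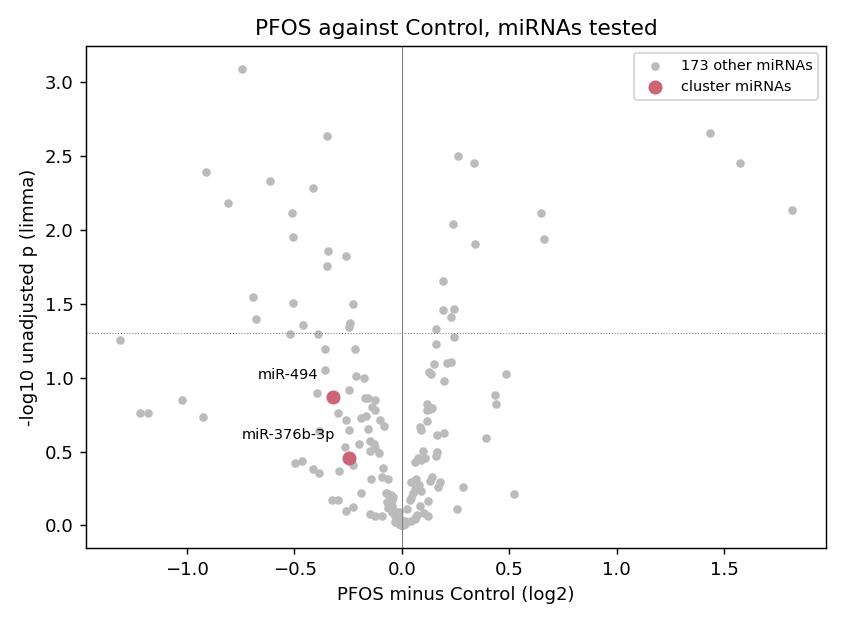
Each point is a tested miRNA, placed by its log2 difference, PFOS minus control (horizontal axis), and by -log10 of the unadjusted limma p (vertical axis); the dotted line is an unadjusted p of 0.05 and cluster members are red. Both red points, miR-494 at -0.32 and miR-376b-3p at -0.25, lie below the dotted line.

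Admitting every miRNA detected on at least 1 array brought all 5 detected members into a fit over 219 miRNAs, of which 0.457% passed the adjusted threshold and none of the 5 did. The largest estimate was for miR-539, at -1.24 (SE 0.62, 95% interval -2.72 to 0.24, limma adjusted p = 0.404). Its scaled signal on PFOS array 4 was 12.9, near the floor of 12.1, so the size of this difference depends on the floor. The difference was -0.79 and -1.86 by slide row, the first row with 1 control array, and -0.83 without PFOS array 4. Its size depended on the processing, at -0.23 with equally weighted loess, -0.30 with normexp and quantile normalisation and -0.20 in the authors' deposited table. For miR-409-3p the difference was -0.98 (SE 0.26, 95% interval -1.61 to -0.35, limma adjusted p = 0.0987), and it was -0.65 without PFOS array 3. Its unadjusted p was under 0.05, as it was for 16% of the 219. By slide row the miR-409-3p difference was -1.06, again against 1 control array, and -1.03. It too was smaller under those alternatives, at -0.24 with equally weighted loess, -0.15 with normexp and -0.16 in the authors' deposited table. The normexp setting added 50 to every spot, more than the processed signal of miR-409-3p on any array (25.8 to 48.8). Such an addition by itself makes log2 differences of weak miRNAs smaller. In the deposited table miR-409-3p ran from 5.64 to 5.98 and the undetected miR-487b from 5.62 to 5.73. On such scales the sizes of weak miRNAs' differences cannot be set against those of the main fit. Leaving aside miR-770*, the other 4 estimates were negative, as were 62.1% of the 219. A miRNA at the floor on every array had a difference of -0.17 from the normalisation alone, and miR-770* was at the floor on 5 of 7 arrays.

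Other imprinted loci with miRNAs on the array were counted in the same way. Of the H19/Igf2 locus, 1 of 4 miRNAs was detected on any array, and of the Gnas locus 2 of 4. The Mest miRNA was detected on all 7 arrays, and 5 of 7 miRNAs of the Sfmbt2 intron were detected on any array. The cluster had 5 of 69.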

How the data were processed

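Groups came from the sample titles. Per the file headers, the deposited intensity values are background-subtracted 1-colour Agilent signals from Feature Extraction, not normalised between arrays. The deposited log2 value table was normalised by cyclic lowess by the authors, per the labels, and served as an alternative. Spots of a probe were averaged without outliers, and a miRNA's probes were summed. Arrays were scaled to the 75th percentile over miRNAs detected on all arrays, floored at 12.1 (the 1st percentile of detected values), log2-transformed and normalised by cyclic loess (span 0.7, 3 iterations) weighted to those miRNAs. Each miRNA was then tested in limma 3.58.1 under R 4.3.3 by lmFit and eBayes, and p-values were adjusted by Benjamini-Hochberg over all miRNAs tested. The script was tested on simulated data. Every member detected on at least 1 array was named with its values, then the 5 brightest undetected ones, the rest by counts. The members and lists were chosen with earlier results of these data known. Precision is limited by the number of arrays, and 1 rat per array makes the arrays separate animals. Genome coordinates are not given, since the array's annotation is of another build. No probe sequences were used here.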

Additional observations from a re-analysis of the deposited data

Results flagged for a closer look

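On the PFOS arrays, the normalised log2 signal of miR-409-3p on PFOS array 3 was far from the other 3, with a gap of 0.907 of the group's range. It was the only such value among 6 measures screened, and chance flags about 1 in 20 groups of this size.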

How the results depend on the processing

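Cluster miRNAs past the threshold numbered 0 under all 25 alternatives tried. Some of these changed only the filter, the eBayes setting or the threshold, which cannot change a miRNA's difference, and others left out 1 array each. Counts of signs over the 25 are therefore not counts of independent checks. The difference of miR-494 was negative under 24 of the 25 and was 0.13 with normexp and quantile normalisation. That of miR-376b-3p was negative under 23, and was 0.059 with the 75th percentile over all miRNAs and 0.0095 with normexp. The cause was not tested. Their median was 0.013 with that percentile, 0.072 with normexp, -0.67 with spike-in scaling and -0.069 in the deposited table, and it was -0.37 to -0.17 with each array left out in turn. Without PFOS array 2, 3 or 4, miR-376b-3p was no longer tested. These scalings moved the median of all tested miRNAs to 0.25 with the 75th percentile over all miRNAs and to -0.43 with the spike-in. Relative to that median, miR-494 was negative under 24 of 25 alternatives and miR-376b-3p under 24. Over all tested miRNAs, calls were 3 with the 75th percentile, 8 with the spike-in, 3 with normexp, 1 with total gene signal, 9 in the deposited table, 1 with detection on at least 1 array, 4 with no filter, 1 with the software's flag and 6 with the slide row as a block, against 0, and 0 with each array left out. Detected cluster miRNAs averaged 4 and 5 on control and PFOS arrays by the software's flag, and 0.667 and 1 (3 detected on any array) when every probe had to pass. Under that last rule miR-494 was detected on no array. With each array left out, the number detected on any array was 4 to 5, the control mean 1.5 to 3 and the PFOS mean 2.67 to 3.33. No paired analysis was possible because the labels give the groups no shared replicate numbers.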
